A study of Mus musculus with 6 samples.

Results

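The expression of Satb1 and of 4 genes of the Ikaros family, Ikzf1, Ikzf2, Ikzf3 and Ikzf5, was followed through 3 sorted populations of adult mouse bone marrow. The members were all probe sets annotated to 1 of these 5 genes alone, whatever their values. The 5 genes themselves were chosen with earlier results of these data known. They were 15 of the 34945 probe sets on the array that named a single gene, and 5 of the 18193 genes so named. Satb1 had 5 probe sets, Ikzf2 and Ikzf3 had 3 each, and Ikzf1 and Ikzf5 had 2 each. All samples were LSK cells, the lineage-negative marrow cells positive for Sca1 and Kit that hold blood stem cells and early multipotent progenitors, from mice 10 to 14 weeks old. They were sorted by CD34 and by the cytokine receptor Flt3 into CD34+Flt3hi, CD34+Flt3- and CD34-Flt3- cells, with 2 Affymetrix arrays for each of the 3 groups. The labels give no genotype, strain, sex or treatment, and do not say whether animals were pooled. Nor do they say that paired arrays stem from different mice or different sorts, so the p-values cover no more than array-to-array spread, possibly of technical origin.

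Satb1 encodes a chromatin organiser that tethers AT-rich DNA into loops and recruits remodelling complexes. It is best known from thymocytes, and in mouse stem cells it promotes lymphoid potential. Ikaros proteins are zinc finger factors that bind DNA through their N-terminal fingers, pair with each other through their C-terminal fingers and act largely through the NuRD corepressor complex. Ikzf1 (Ikaros) is needed for lymphoid commitment, Ikzf2 (Helios) is found in stem cells and regulatory T cells, Ikzf3 (Aiolos) in maturing lymphocytes, and Ikzf5 (Pegasus) is a distant, broadly expressed relative.

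The arrays had similar median intensities, from 29.7 to 31.4 in linear units, and replicates correlated with r between 0.963 and 0.988 over all probe sets naming 1 gene. The replicates of CD34-Flt3- cells differed most, with 2761 probe sets over 2-fold apart, beside 272 in CD34+Flt3hi and 931 in CD34+Flt3- cells. Levels are given as log2 of the deposited intensity, and a log2 of 4.50 was taken as background. Of the antigens used for sorting, Kit was above background on all arrays, at 8.82 to 10.99. Cd34 had 11.35 and 11.34 in CD34+Flt3hi, 10.51 and 10.68 in CD34+Flt3- and 8.78 and 9.45 in CD34-Flt3- cells, and Flt3 had 12.01 and 11.75, 8.84 and 9.81, and 7.65 and 9.16 in the same order. The titles end in 1 of 3 codes that no label explains, here named A, B and C. Code A marks replicate 2 of every group, B marks replicate 1 of both CD34+ groups, and C marks replicate 1 of CD34-Flt3- cells. A difference was called at an adjusted p under 0.05 over all probe sets or genes of a comparison in limma, a linear model with moderated variances. With 2 arrays in each group the smallest p of an exact permutation test is 0.333, so none is given.

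Satb1 was the member that separated the populations. On 3 of its 5 probe sets its RNA in CD34+Flt3hi cells was 7.50-fold to 10.4-fold higher against CD34+Flt3- cells and 8.48-fold to 20.8-fold higher against CD34-Flt3- cells. In the main fit of all 6 arrays, without a replicate block, none of the 10 Ikaros family probe sets was called in any comparison. With the title codes fitted as a block, Ikzf1 1436312_at and Ikzf2 1456956_at were called.

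The capitals mark the core of the Ikaros binding element in the Satb1 promoter windows. These windows are shown because Satb1 is the gene with called differences in the main fit. They come from RefSeq (GRCm38.p6) and hold the 250 bases before each annotated start, read 5′ to 3′ on the gene's strand, for the 4 of 5 annotated Satb1 windows that do not overlap each other.
Satb1 start 1, chr17:51833291-51833540, minus strand: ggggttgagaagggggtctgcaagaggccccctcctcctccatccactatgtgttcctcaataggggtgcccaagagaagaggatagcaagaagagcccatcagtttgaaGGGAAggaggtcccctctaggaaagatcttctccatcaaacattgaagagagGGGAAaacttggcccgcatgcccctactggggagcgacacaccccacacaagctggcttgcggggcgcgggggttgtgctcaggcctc
Satb1 start 2, chr17:51832648-51832897, minus strand: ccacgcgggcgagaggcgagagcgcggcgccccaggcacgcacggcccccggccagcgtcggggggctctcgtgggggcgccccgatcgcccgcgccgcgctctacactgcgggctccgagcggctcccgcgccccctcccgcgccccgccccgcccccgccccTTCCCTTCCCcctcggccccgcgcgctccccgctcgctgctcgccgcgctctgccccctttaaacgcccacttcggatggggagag
Satb1 start 3, chr17:51826589-51826838, minus strand: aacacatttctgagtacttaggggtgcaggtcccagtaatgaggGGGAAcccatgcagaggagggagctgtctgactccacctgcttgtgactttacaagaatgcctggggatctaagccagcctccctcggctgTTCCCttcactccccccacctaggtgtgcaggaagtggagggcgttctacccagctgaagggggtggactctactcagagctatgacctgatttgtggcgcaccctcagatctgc
Satb1 start 4, chr17:51812185-51812434, minus strand: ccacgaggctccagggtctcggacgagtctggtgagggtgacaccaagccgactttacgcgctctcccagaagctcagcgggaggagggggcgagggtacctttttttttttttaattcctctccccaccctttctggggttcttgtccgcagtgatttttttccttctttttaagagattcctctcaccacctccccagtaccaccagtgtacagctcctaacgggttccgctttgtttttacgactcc
The motif searched was GGGAA on the printed strand and TTCCC for the other strand, whose matches cannot overlap each other. Of all 32851 windows of this length in the table, 56.2% held at least 1 match. Of the 5 Satb1 windows 4 held it, with at most 2 matches in a window, and start 4 held none. Windows were also matched for Ikzf1, where 1 of 2 held the motif, and for Ikzf5, where the 1 window held it. A match is a description of the letters and no evidence of binding, and a window without it shows only that these letters are missing there.

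The brightest Satb1 probe set, 1416007_at, had log2 intensities of 11.32 and 11.09 in CD34+Flt3hi cells, 7.93 and 8.67 in CD34+Flt3- cells and 6.91 and 6.75 in CD34-Flt3- cells. In linear units these were 2551 and 2184, 244 and 406, and 120 and 108 in the same order of groups. The groups stepped down without overlap. In bulk samples of this kind, fewer cells expressing a gene and less RNA per cell cannot be told apart.

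From CD34+Flt3- cells the CD34+Flt3hi cells differed by 2.91 ± 0.29 on the log2 scale (SE, n = 2 and 2), or 7.50-fold, with a 95% confidence interval of 2.26 to 3.55 and an adjusted p of 0.00309 in limma. The difference was 2.43 between the arrays of code A and 3.39 between those of code B. Probe set 1416008_at, designed from the same source sequence, had 10.69 and 10.69 in CD34+Flt3hi cells, 7.05 and 7.57 in CD34+Flt3- cells and 6.72 and 6.93 in CD34-Flt3- cells. Here too the CD34+Flt3hi arrays stood far above all others. The difference between the CD34+ groups was 3.38 ± 0.27, or 10.4-fold (limma adjusted p = 0.00104), with 3.12 in code A and 3.64 in code B. Probe set 1436182_at, from another source sequence, had 9.22 and 8.97 in CD34+Flt3hi cells, 5.96 and 6.19 in CD34+Flt3- cells and 5.50 and 6.52 in CD34-Flt3- cells. The arrays of the other 2 groups overlapped each other, and both lay well below the CD34+Flt3hi arrays. Its difference between the CD34+ groups was 3.02 ± 0.35, or 8.09-fold (limma adjusted p = 0.00745).

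Among all 34945 probe sets, ordered from the largest rise, these 3 ranked 22, 14 and 18 in this comparison. The 3 members called (1 without either CD34+Flt3hi replicate and 5 without either CD34-Flt3- replicate) compare with 0.212% of all probe sets called higher and 0.132% called lower. The calls of 1416007_at and 1436182_at depended on single arrays. Without CD34+Flt3hi replicate 1 their adjusted p values were 0.0762 and 0.105, and without CD34+Flt3hi replicate 2 they were 0.0545 and 0.0875. Probe set 1436182_at was also not called without CD34+Flt3- replicate 1 (adjusted p = 0.167) or replicate 2 (0.065). With each array left out in turn the log2 difference stayed between 2.54 and 3.27 for 1416007_at and between 2.89 and 3.14 for 1436182_at, while 1416008_at was called under all 16 alternative settings.

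**Figure D1:**
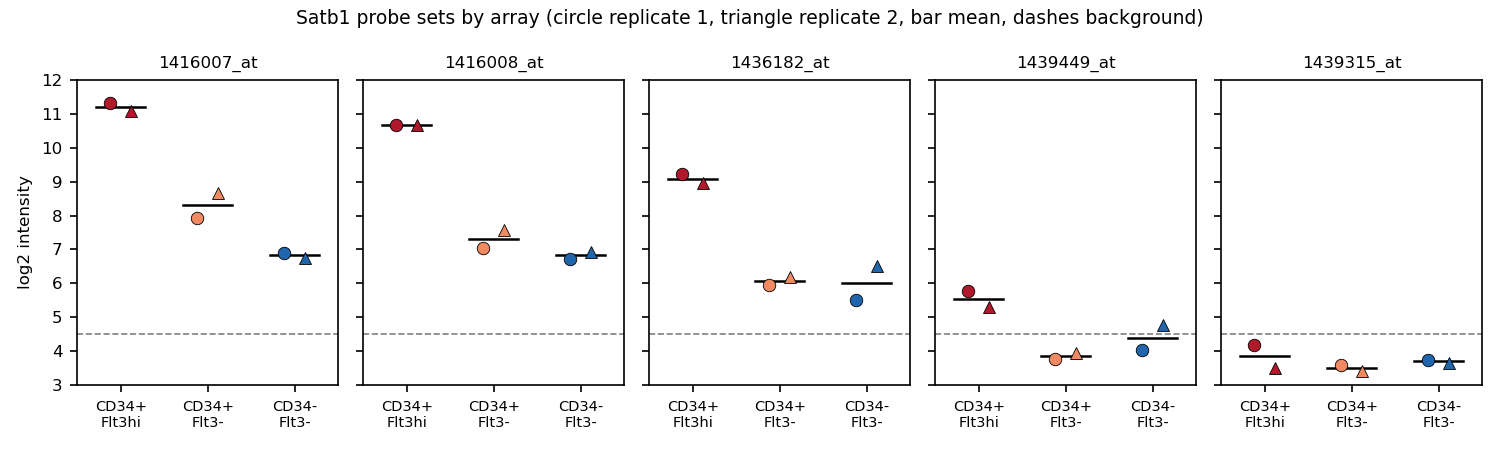
Log2 intensity (vertical axis) of the 5 Satb1 probe sets on each of the 6 arrays, with CD34+Flt3hi on the left, CD34+Flt3- in the middle and CD34-Flt3- on the right. Circles are replicate 1, triangles replicate 2, bars the mean of 2 arrays and the dashed line the background of 4.50. The CD34+Flt3hi arrays stand highest on the first 4 probe sets, and the last lies below background on all arrays.

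Against CD34-Flt3- cells the CD34+Flt3hi cells were higher by 4.38 ± 0.29 on the log2 scale on 1416007_at, or 20.8-fold (95% interval 3.74 to 5.02, limma adjusted p = 0.000112), and by 4.34 between the arrays of code A. Probe set 1416008_at gave 3.86 ± 0.27, or 14.5-fold, and 1436182_at gave 3.08 ± 0.35, or 8.48-fold. Their adjusted p values in limma were 0.000162 and 0.00174. All 3 were called under each of the 16 alternative settings. The 3 called members (5 without CD34-Flt3- replicate 2) stand beside 1.89% of all probe sets called higher and 2.24% called lower in this comparison, the wider sort contrast.

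The step between the Flt3- populations had smaller estimates and was called on 1 probe set. That it was smaller did not pass the direct test described below. Between CD34+Flt3- and CD34-Flt3- cells, 1416007_at was higher by 1.47 ± 0.29, or 2.77-fold (95% interval 0.83 to 2.11, limma adjusted p = 0.0467), with 1.92 in code A. Probe set 1416008_at gave 0.48 ± 0.27 (95% interval -0.12 to 1.09, adjusted p = 0.443), and 1436182_at gave 0.07 ± 0.35 (95% interval -0.72 to 0.86). The 1 call (2 without CD34-Flt3- replicate 2) compares with 0.481% of all probe sets called higher and 0.644% called lower. It was lost when either CD34+Flt3- array was left out, with an adjusted p of 0.0637 without replicate 1 and 0.42 without replicate 2. Without CD34+Flt3hi replicate 1 or 2 the adjusted p was 0.149 or 0.15, and the difference itself was unmoved. The order of mean Satb1 levels on the 3 brighter probe sets was CD34+Flt3hi, then CD34+Flt3-, then CD34-Flt3-, and the last 2 of these differed past the threshold on 1 of them.

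Whether the step at Flt3 was larger than the step at CD34 was tested directly. The log2 change between the CD34+ groups exceeded the change between the Flt3- groups by 2.89 ± 0.47 on 1416008_at, 2.95 ± 0.61 on 1436182_at and 1.44 ± 0.50 on 1416007_at. None passed, with adjusted p values in limma of 0.148, 0.317 and 0.567. Of the 15 members 0 were called and 5 had an unadjusted p under 0.05, beside 0.0315% of all probe sets called and 7.94% with such an unadjusted p. Without CD34-Flt3- replicate 1, 3 members were called, and without its replicate 2, 1 was.

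The remaining Satb1 probe sets were dim. Probe set 1439449_at had 5.79 and 5.31 in CD34+Flt3hi cells, 3.77 and 3.94 in CD34+Flt3- cells and 4.04 and 4.76 in CD34-Flt3- cells, and 3 of the 6 values lay above background. Both CD34+Flt3hi arrays were the highest. The measured difference between the CD34+ groups was 1.70 ± 0.30 (adjusted p = 0.058), at least 2.07-fold with the dim group set to background. It passed the threshold without CD34-Flt3- replicate 1 (0.00784) or replicate 2 (0.00721), arrays outside this comparison that enter its estimate of the spread. Against CD34-Flt3- cells it was at least 1.89-fold (adjusted p = 0.0685), and it was called without CD34-Flt3- replicate 2 (0.0128). Probe set 1439315_at lay below background on all arrays, at 3.42 to 4.18, so that Satb1 has no measured level there.

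Agreement between probe sets was measured as the per-array log2 ratio of each to 1416007_at, fitted in limma without the intensity trend used for the levels. Over the 6 arrays, which fall into 3 groups, Pearson's r with 1416007_at was 0.973 for 1416008_at, 0.924 for 1436182_at, 0.748 for 1439449_at and 0.342 for 1439315_at. The dim probe set 1439315_at lay below background on all arrays, and 1439449_at did in the mean of CD34-Flt3- cells. Their ratios therefore largely carry the change of 1416007_at itself and cannot show whether the probe sets disagree. Between CD34+Flt3hi and CD34-Flt3- cells these 2 ratios changed by -4.23 (limma adjusted p = 0.0177) and -3.22 (0.0191), where 0.716% of all such ratios were called. Neither was called when 1 of the CD34+Flt3hi arrays was left out. Between the Flt3- groups 1416008_at differed from 1416007_at by -0.99 ± 0.29 and 1436182_at by -1.40 ± 0.42, with adjusted p values of 0.204 and 0.207. In that comparison 0 of 10 member ratios were called by limma, 5 had an unadjusted p under 0.05, and 0% of the 16752 ratios of all genes were called, with 14.9% under an unadjusted 0.05. Between the CD34+ groups 0 of 10 were called, 3 had an unadjusted p under 0.05, and the share of all ratios called was also 0%, with 4.74% under an unadjusted 0.05. The ratio of the 3′ to the 5′ Gapdh control probe set, a sign of RNA length after amplification, was 6.59 and 8.42 in CD34+Flt3hi cells, 6.83 and 7.50 in CD34+Flt3- cells and 5.04 and 6.34 in CD34-Flt3- cells. Its part in the probe-set differences was not tested.

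Ikzf1 was read mainly from 1436312_at, with 10.68 and 10.89 in CD34+Flt3hi cells, 9.95 and 9.59 in CD34+Flt3- cells and 10.54 and 9.91 in CD34-Flt3- cells. The CD34+Flt3hi arrays were the highest, and the arrays of the Flt3- groups overlapped. The difference between the CD34+ groups was 1.01 ± 0.25 (95% interval 0.45 to 1.58), or 2.02-fold, and did not pass the threshold (limma adjusted p = 0.256). It was 1.30 in code A and 0.73 in code B. Without CD34-Flt3- replicate 1 or 2 the same difference had an adjusted p of 0.0351 or 0.0346, and with only the 4 arrays of the CD34+ groups it had 0.0329. Against CD34-Flt3- cells the CD34+Flt3hi difference was 0.56 ± 0.25 (adjusted p = 0.309), and without CD34-Flt3- replicate 1 it was 0.88 and called (0.0418). Between CD34+Flt3- and CD34-Flt3- cells it was -0.45 ± 0.25 (adjusted p = 0.444). The order was CD34+Flt3hi, CD34-Flt3-, CD34+Flt3-, in which no neighbours differed past the threshold. The other probe set, 1421303_at, ran from 5.63 to 6.69 over all arrays with differences of 0.18 to 0.40, and its r with 1436312_at over the 6 arrays was 0.566.

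Ikzf2 was not called on its brightest probe set, 1437542_at, at 8.64 and 8.43 in CD34+Flt3hi cells, 8.99 and 8.39 in CD34+Flt3- cells and 8.83 and 8.73 in CD34-Flt3- cells. The differences were -0.16 ± 0.27 between the CD34+ groups (95% interval -0.76 to 0.45), -0.24 ± 0.27 between CD34+Flt3hi and CD34-Flt3- cells, and -0.09 ± 0.27 between the Flt3- groups. Probe set 1456956_at varied more, at 5.71 and 5.25 in CD34+Flt3hi cells, 6.72 and 5.08 in CD34+Flt3- cells and 5.05 and 3.84 in CD34-Flt3- cells. Replicates of both Flt3- groups lay far apart there. Its difference of 1.45 ± 0.54 between the Flt3- groups, at least 2.18-fold, did not pass (adjusted p = 0.245). The third Ikzf2 probe set, 1421643_at, was above background on 1 of 6 arrays.

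Ikzf3, whose product is known from maturing lymphocytes, was measured near background. On 1441088_at it had 5.14 and 5.40 in CD34+Flt3hi cells, 5.29 and 5.10 in CD34+Flt3- cells and 5.25 and 5.60 in CD34-Flt3- cells. All 3 groups overlapped, and the differences ran from -0.23 to 0.08. Probe set 1436649_at was above background on CD34-Flt3- replicate 1 alone, at 5.02, beside 3.91 on replicate 2, 3.45 and 3.59 in CD34+Flt3hi cells and 3.58 and 3.83 in CD34+Flt3- cells. The group means were all below background, so no fold is given. With CD34-Flt3- replicate 2 left out it was called lower in CD34+Flt3hi (adjusted p = 0.00292) and in CD34+Flt3- cells (0.0134), and otherwise not. Probe set 1453378_at was below background on all arrays.

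Ikzf5 showed no called difference on either probe set. Probe set 1429431_at had 7.39 and 7.05 in CD34+Flt3hi cells, 7.39 and 6.51 in CD34+Flt3- cells and 7.18 and 7.17 in CD34-Flt3- cells. Probe set 1436554_at had 6.15 and 6.62 in CD34+Flt3hi cells, 7.17 and 6.36 in CD34+Flt3- cells and 6.58 and 6.83 in CD34-Flt3- cells. The groups overlapped on both. Differences between the CD34+ groups were 0.27 ± 0.34 (95% interval -0.48 to 1.02) on 1429431_at and -0.38 ± 0.34 (95% interval -1.14 to 0.39) on 1436554_at.

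Over the 10 Ikaros family probe sets, limma called 0 in each comparison in the main fit, without a replicate block. An unadjusted p under 0.05 was reached by 1 between the CD34+ groups, 1 between CD34+Flt3hi and CD34-Flt3- cells and 2 between the Flt3- groups, where 5.61%, 16.2% and 14.9% of all probe sets reached it. Their differences ran from -0.42 to 1.01, from -0.94 to 1.03 and from -0.76 to 1.45 in these comparisons. These ranges are those of 2 arrays a group, and a missed threshold does not show that levels were equal.

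**Figure D2:**
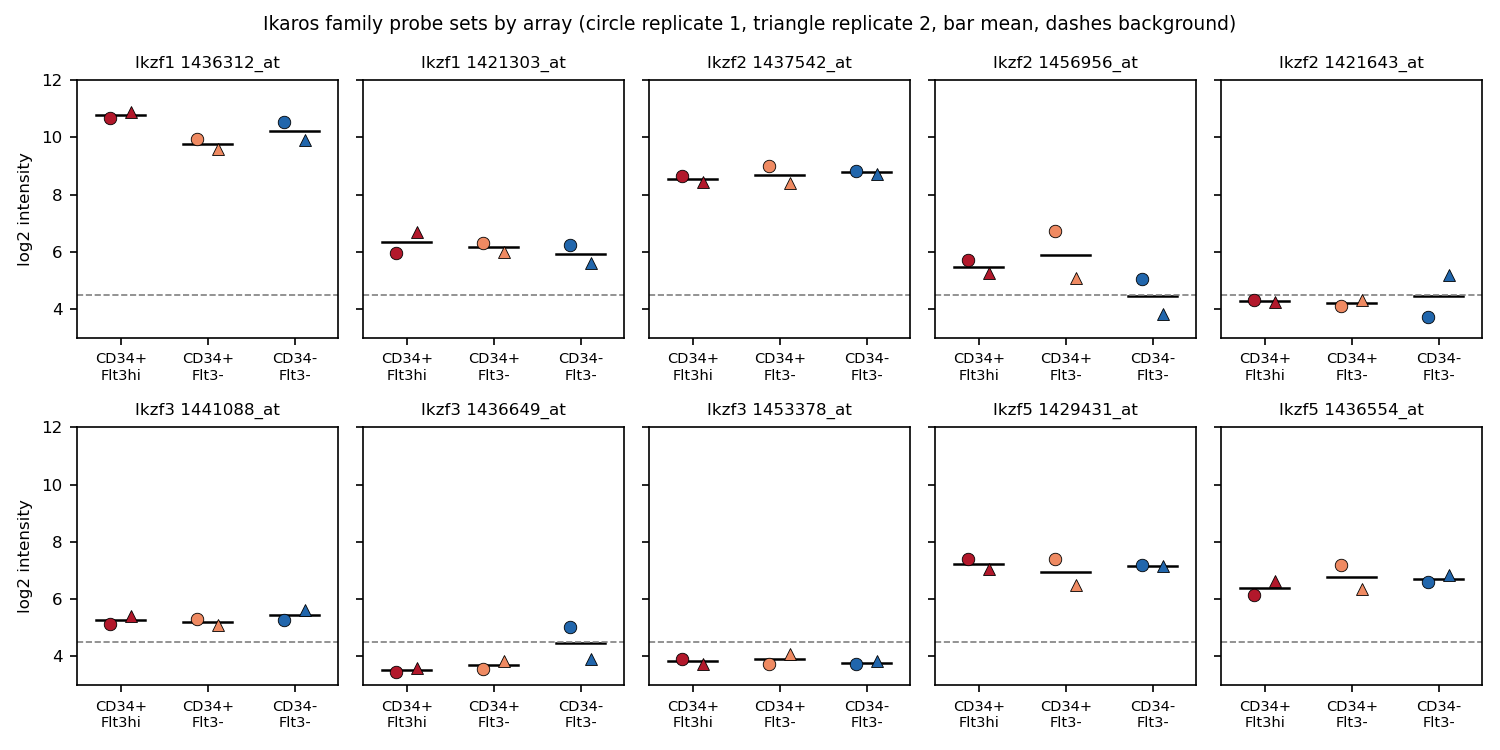
Log2 intensity (vertical axis) of the 10 probe sets of Ikzf1, Ikzf2, Ikzf3 and Ikzf5 on each array, with CD34+Flt3hi on the left, CD34+Flt3- in the middle and CD34-Flt3- on the right. Circles are replicate 1, triangles replicate 2, bars the mean of 2 arrays and the dashed line the background of 4.50. The groups overlap or lie close together in most panels, and on Ikzf1 1436312_at both CD34+Flt3hi arrays are the highest, at 10.68 and 10.89.

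**Figure D3:**
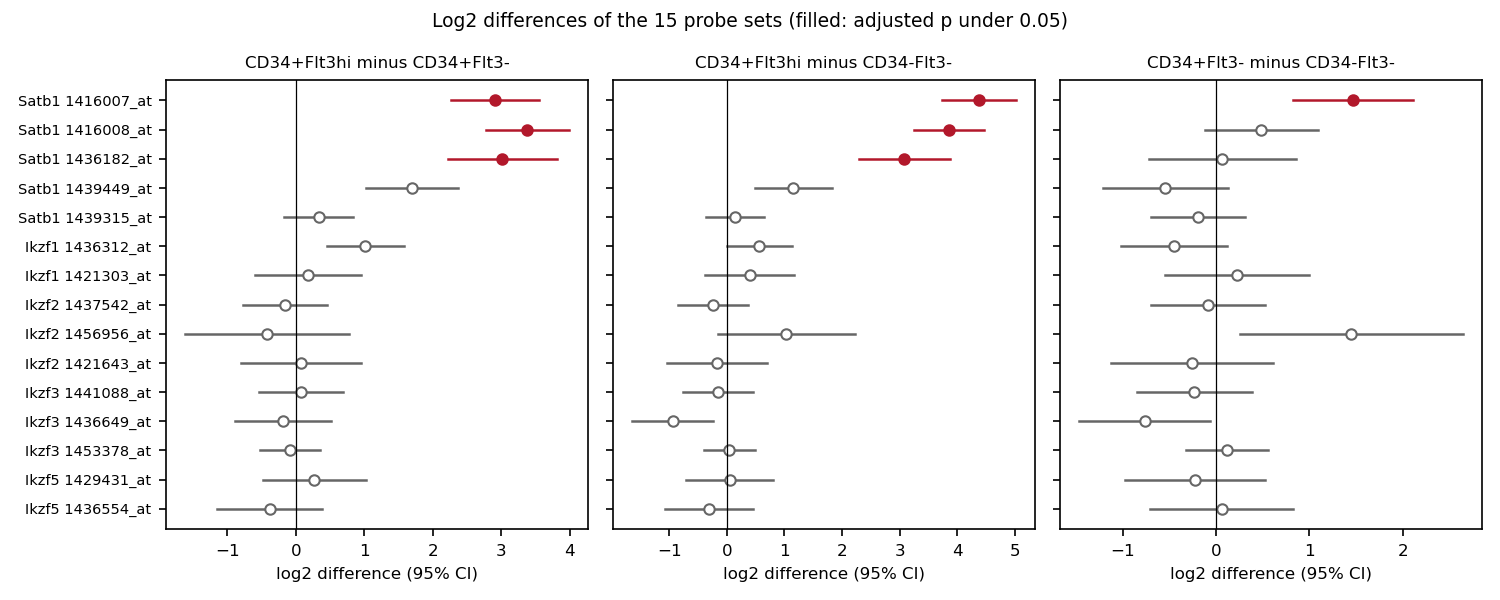
Log2 difference (horizontal axis) with its 95% confidence interval for the 15 probe sets in 3 comparisons, each with 2 arrays a group. Filled red points passed an adjusted p of 0.05, and these are 3, 3 and 1 Satb1 probe sets from the left panel to the right.

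Markers of mature cells were summed as linear intensities over each list, and a gene counted as above background where its mean over the 6 arrays was. The B lineage sum was 3111 to 3231 in CD34+Flt3hi cells, 421 to 543 in CD34+Flt3- cells, and 3504 and 460 on replicates 1 and 2 of CD34-Flt3- cells, with 6 of 10 measured genes above background. Ighm, the heavy chain gene of IgM, made the split, at 11.59 and 5.38 on the log2 scale on CD34-Flt3- replicates 1 and 2, beside 11.43 and 11.50 in CD34+Flt3hi and 6.26 and 7.58 in CD34+Flt3- cells. Of the defining B cell genes Ms4a1 and Pou2af1 were below background on all 6 arrays, and Pax5 and Blk were below it in the mean but above it on 2 and 3 arrays, at up to 4.89 and 4.75. Ebf1 was above background in the mean and on 2 arrays, replicate 2 of CD34+Flt3- (4.99) and of CD34-Flt3- cells (5.25). Unlike Ighm, Ebf1 (4.25 and 5.25) and Pax5 (4.50 and 4.89) were higher on replicate 2 than on replicate 1 of CD34-Flt3- cells. Cd79b, a B cell receptor signalling chain, was above it on all arrays, at 7.06 and 7.22 in CD34+Flt3hi, 6.99 and 7.13 in CD34+Flt3- and 7.60 and 7.61 in CD34-Flt3- cells, as were Cd79a, Cd22 and Vpreb3 at 4.63 to 5.74. On CD34-Flt3- replicates 1 and 2, Satb1 1416007_at had 6.91 and 6.75, and 1439315_at had 3.73 and 3.66. Satb1 1416008_at (6.72 and 6.93), 1436182_at (5.50 and 6.52) and 1439449_at (4.04 and 4.76) were higher on replicate 2. Ikzf1 1436312_at (10.54 and 9.91) and Ikzf3 1436649_at (5.02 and 3.91) were higher on replicate 1, and Ikzf3 1441088_at (5.25 and 5.60) was lower there. The part of B lineage RNA in these differences was not tested. The dendritic cell sum was 4356 to 4932 in CD34+Flt3hi cells, 1010 to 1506 in CD34+Flt3- cells and 1077 to 1527 in CD34-Flt3- cells. Of its 9 genes 7 were above background, with Xcr1 below it on all arrays and Cd209a on all but 1. The sum includes Flt3, for which the cells were sorted, its brightest gene in CD34+Flt3hi cells at 12.01 and 11.75. Itgax and Ccr7 were also highest there, at up to 5.81 and 5.38. H2-Ab1, Cd74 and Siglech instead had their highest means in CD34-Flt3- cells, at 8.71, 7.62 and 5.52, beside 8.50, 7.34 and 5.04 in CD34+Flt3hi cells. The neutrophil and monocyte sum was 669 to 965 in CD34+Flt3hi, 312 to 401 in CD34+Flt3- and 236 to 298 in CD34-Flt3- cells. Of its 9 genes 5 were above background, with S100a8, Ltf and Lcn2 below it on all arrays and S100a9 on all but 1. Csf1r made the gradient of this sum, at 9.57 and 8.89, 6.82 and 7.58, and 5.79 and 6.36 in the same order. No other gene of the list exceeded 5.48 on any array. The part of these lists in the Satb1 differences was not tested. The sum of T and NK markers did not follow Satb1, at 1100 to 1122 in CD34+Flt3hi, 1561 to 1580 in CD34+Flt3- and 603 to 807 in CD34-Flt3- cells. Nkg7 was its brightest gene on every array, at 9.52 and 9.56, 10.10 and 10.07, and 7.63 and 8.23 in the same order. Cd3e, Cd4, Cd8a and Thy1 were also above background on all arrays, at 5.13 to 6.89, and 6 of 13 genes were above background in the mean. Cd3g and Cd5 were below it on all arrays, while Cd3d was above it on both CD34-Flt3- arrays (mean 4.76 ± 0.34, SD, n = 2) and Cd8b1 on 1 of them (4.57 ± 0.21). None of 4 mature erythroid genes was above background in the mean, and each was above it on 1 or 2 arrays, at up to 4.89. The megakaryocyte and platelet sum was lowest in CD34+Flt3hi cells, at 255 to 298, with 6 of 7 genes above background. It was 1084 to 2271 in CD34+Flt3- and 3335 to 3580 in CD34-Flt3- cells. Vwf set these 2 groups apart, at 8.25 and 5.53 in CD34+Flt3- and 11.12 and 10.78 in CD34-Flt3- cells. Pf4, Itga2b, Gp1bb, Gp9 and Gp5 overlapped between the Flt3- groups.

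The genes that work with the members were counted with 1 probe set per gene, the brightest, and adjusted over 18193 genes. The 19 NuRD and other corepressor genes through which Ikaros proteins act showed 0 calls by limma in each comparison, with an unadjusted p under 0.05 for 0 between the CD34+ groups, 3 between CD34+Flt3hi and CD34-Flt3- cells and 2 between the Flt3- groups, which 6.76%, 18.3% and 16.9% of all genes reached. Without CD34-Flt3- replicate 1, 2 were called between CD34+Flt3hi and CD34-Flt3- cells. Of all genes, 0.385% were called higher and 0.225% lower between the CD34+ groups, 2.62% and 3.5% between CD34+Flt3hi and CD34-Flt3- cells, and 0.77% and 1.33% between the Flt3- groups. Rbbp7, a histone-binding subunit, had 12.40 and 12.40 in CD34+Flt3hi, 12.24 and 12.07 in CD34+Flt3- and 12.42 and 12.03 in CD34-Flt3- cells. Rbbp4, its close relative, had 12.13 and 12.03, 12.02 and 11.76, and 11.73 and 11.43 in the same order. The list's median difference was 0.19, 0.17 and -0.05 in the 3 comparisons, where the median of all genes was 0.03, -0.07 and -0.10.

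Of the nearest relatives, Ikzf4 (Eos) was brightest in the cells where Satb1 was lowest. It had 4.60 and 4.62 in CD34+Flt3hi cells, 4.65 and 3.72 in CD34+Flt3- cells and 5.82 and 5.86 in CD34-Flt3- cells. Against CD34-Flt3- cells it fell by 1.23 ± 0.31 in CD34+Flt3hi cells (limma adjusted p = 0.0449) and was at least 2.40-fold lower in CD34+Flt3- cells (0.0306). The first call was lost without either CD34+Flt3hi replicate or CD34-Flt3- replicate 2, and the other without either CD34+Flt3hi replicate or CD34+Flt3- replicate 2. Cux1, a homeobox gene related to Satb1, was not called, with averages between 8.26 and 8.81.

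Early lymphoid genes rose between the CD34+ groups in 3 of 19 cases and fell in 0. Dntt, the terminal transferase that adds bases at antigen receptor joints, had 12.59 and 12.61 in CD34+Flt3hi and 6.44 and 7.11 in CD34+Flt3- cells, a difference of 5.82 ± 0.27. Notch1, the receptor that directs T lineage choice, was higher by 2.59 ± 0.26, and Flt3, for which the cells were sorted, by 2.56 ± 0.45. Against CD34-Flt3- cells 5 rose and 1 fell. Dntt, Flt3 and Notch1 were higher by 5.37, 3.48 and 1.88, and Ltb, the lymphotoxin beta gene, fell by 1.68 ± 0.26. Between the Flt3- groups 0 rose and 1 fell, Ltb, by 1.38 ± 0.26. The list's medians were 0.80, 0.58 and -0.36 for the 3 comparisons. Satb1 is not a member of these counts. The Flt3 difference against CD34-Flt3- cells was 2.72 without CD34-Flt3- replicate 1 and 4.23 without replicate 2. Flt3 was not called between the CD34+ groups without any 1 of the 4 arrays compared, Notch1 was not without CD34+Flt3hi replicate 2, and Dntt was called whichever array was left out. Ltb was not called against CD34-Flt3- cells without either CD34+Flt3hi replicate, and between the Flt3- groups without any 1 array of either CD34+ group. Notch1 was not called against CD34-Flt3- cells without CD34+Flt3hi replicate 2. Without CD34+Flt3hi replicate 2 the list's calls were 1 between the CD34+ groups and 2 against CD34-Flt3- cells. Without either CD34-Flt3- replicate 5 were called between the CD34+ groups, and without CD34-Flt3- replicate 2, 3 between the Flt3- groups.

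Of 27 lymphoid transcription factors, 1 rose between the CD34+ groups. This was Irf8, a regulator of dendritic, monocyte and B cell fates, with 10.11 and 9.57 in CD34+Flt3hi and 5.86 and 6.84 in CD34+Flt3- cells, a difference of 3.49 ± 0.37 that was not called without CD34+Flt3hi replicate 1. Against CD34-Flt3- cells 4 rose and 4 fell. Among them Irf8 was higher by 3.87 and Runx3, a runt family factor, by 1.77, while Gata3, a T lineage factor, fell by 2.08 and Bcl11b, another T lineage factor, was at least 3.59-fold lower. Bcl11b was not called there without CD34+Flt3hi replicate 1, and Runx3, Gata3 and Bcl11b were not without CD34+Flt3hi replicate 2. Between the Flt3- groups 1 rose and 1 fell. Runx3 was higher by 1.80 ± 0.29 and Gata3 fell by 1.61 ± 0.32, and neither was called without any 1 array of either CD34+ group. The medians were 0.11, 0.11 and -0.26. The calls against CD34-Flt3- cells numbered 3 without CD34+Flt3hi replicate 1 and 1 without its replicate 2, and those between the Flt3- groups 7 without CD34-Flt3- replicate 2. Without CD34-Flt3- replicates 1 and 2 in turn, 3 and 2 were called between the CD34+ groups.

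A fixed list of stem cell and megakaryocyte-erythroid genes was also counted, and its link to Ikaros was not tested. Of 17 measured, 5 fell between the CD34+ groups, 15 fell between CD34+Flt3hi and CD34-Flt3- cells and 7 fell between the Flt3- groups, and 0 rose. Of all genes 0.225%, 3.5% and 1.33% were called lower in these comparisons. The list's medians were -1.42, -2.92 and -1.23. Hoxa9, a homeobox gene of stem and progenitor cells named after its values were seen, ran otherwise, with 11.24 and 11.36 in CD34+Flt3hi, 10.48 and 10.25 in CD34+Flt3- and 11.45 and 11.05 in CD34-Flt3- cells. Its difference was 0.93 ± 0.20 between the CD34+ groups (limma adjusted p = 0.103) and 0.05 ± 0.20 between CD34+Flt3hi and CD34-Flt3- cells. Gata2, a stem and mast cell factor, had 8.09 and 8.29 in CD34+Flt3hi, 11.55 and 10.73 in CD34+Flt3- and 11.60 and 11.78 in CD34-Flt3- cells. Between the CD34+ groups it fell by 2.95 ± 0.27. Itga2b, the platelet integrin gene, fell by 3.31 ± 0.43. Zfpm1, a cofactor of GATA factors, fell by 2.08 ± 0.26, and Pf4, a platelet chemokine gene, was at least 8.37-fold lower. Itga2b was not called without CD34+Flt3hi replicate 2 or CD34+Flt3- replicate 1. Pf4 and Zfpm1 were each not called without either CD34+Flt3hi replicate or CD34+Flt3- replicate 1. Against CD34-Flt3- cells Vwf, the von Willebrand factor gene, was at least 87.5-fold lower in CD34+Flt3hi cells, Gata2 fell by 3.50 ± 0.27, and Ndn, which encodes the growth suppressor necdin, fell by 3.59 ± 0.28. Gfi1b, a repressor needed in the megakaryocyte-erythroid lineage, fell by 2.68 ± 0.25. Between the Flt3- groups Ndn fell by 2.15 ± 0.28 and Vwf fell by 4.06 ± 0.67. Procr, a stem cell surface gene, fell by 2.15 ± 0.29, and Slamf1, a stem cell surface receptor, fell by 1.86 ± 0.31. None of these 4 was called without CD34+Flt3- replicate 2. Vwf had 8.25 and 5.53 on the CD34+Flt3- arrays, so its difference was -5.42 without replicate 1 of that group and -2.70 without replicate 2. Vwf and Slamf1 were also not called without either CD34+Flt3hi replicate, and Slamf1 was not without CD34+Flt3- replicate 1. The list's calls between the Flt3- groups numbered 2 without either CD34+Flt3hi replicate and 3 and 0 without CD34+Flt3- replicates 1 and 2. Between the CD34+ groups they numbered 2 and 1 without CD34+Flt3hi replicates 1 and 2, 1 without CD34+Flt3- replicate 1 and 9 without either CD34-Flt3- replicate. Against CD34-Flt3- cells they stayed between 10 and 16. The comparisons share groups, so their counts are not independent of each other.

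The genes whose pattern over the 6 arrays was most like that of Satb1, among 1649 with a mean above background and group means spanning at least 1, were P2ry14 (r = 0.997), Rgs10 (0.994), Chdh (0.993), Cd93 (0.992) and Trps1 (0.988). P2ry14, a receptor for UDP-sugars, had 9.89 and 9.81 in CD34+Flt3hi cells, 8.09 and 8.25 in CD34+Flt3- cells and 7.29 and 7.16 in CD34-Flt3- cells. Chdh, choline dehydrogenase, had 9.19 and 9.05, 6.28 and 7.22, and 4.98 and 4.94 in the same order. In both, as in Satb1 1416007_at, the groups stepped down without overlap. For Ikzf1 the nearest were Ctr9 (r = 0.990), a subunit of the Paf elongation complex, Tcf7l2 (0.989), a Wnt pathway factor, Csnk1g3 (0.985), Arhgef3 (0.984) and Map3k8 (0.977). Ctr9 had 8.41 and 8.62 in CD34+Flt3hi cells, 7.41 and 6.62 in CD34+Flt3- cells and 7.98 and 7.18 in CD34-Flt3- cells, lowest like Ikzf1 on CD34+Flt3- replicate 2. These r values describe 6 arrays that fall into 3 groups and share their normalization.

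**Figure D4:**
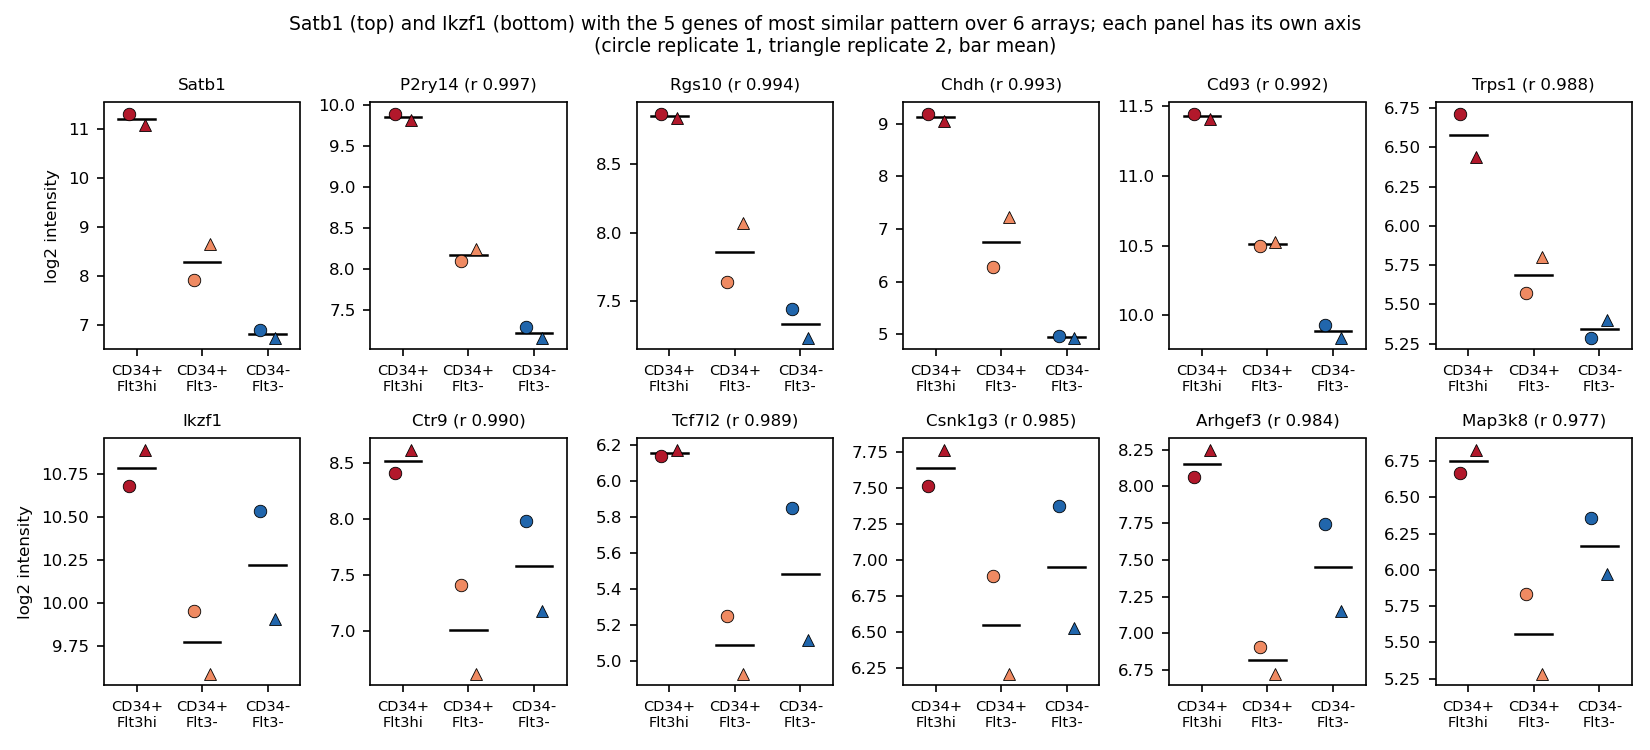
Log2 intensity (vertical axis, scaled per panel) on each array of Satb1 with its 5 most similar genes (top) and of Ikzf1 with its 5 (bottom), with CD34+Flt3hi on the left, CD34+Flt3- in the middle and CD34-Flt3- on the right. Circles are replicate 1, triangles replicate 2 and bars the mean of 2 arrays. The top panels step down from left to right, and in the bottom panels CD34+Flt3- is the lowest group.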

How the data were processed

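RNA of sorted LSK cells was measured on 6 Affymetrix arrays. Per the labels' protocols, in vitro transcription in 2 rounds amplified RNA that a small-scale column kit had purified. The submitters' processing notes name RMA, without a version. The deposited intensity values run from 6.504 to 24173 and were read as RMA results on the linear scale, which is inferred from this range. Their log2 was used. Arrays give no sequencing depth, and precision is limited by how few were hybridised.

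Of 45101 probe sets 64 were controls, 34945 had 1 gene symbol, 932 several and 9160 none. Those with several or none were left out. Current symbols were looked up through gene identifiers, of which 99.1% matched. Background was the 90th percentile of 27 unspiked bacterial control probe sets, 22.6 in linear units. In a group whose mean lay under background, values under it were raised to it, and such folds read "at least".

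Group means came from limma (version 3.58.1, R 4.3.3, data.table package at 1.17.8), moderated by empirical Bayes along an intensity trend, with 6.88 prior and 3 residual degrees of freedom. The median residual SD was 0.24. Ratios between probe sets were fitted without the trend. Two-sided p-values were adjusted with the Benjamini-Hochberg method over all features in a comparison, and 0.05 was the threshold. The fit was first tested on simulated data. Figures used matplotlib 3.10.9 (Python 3.11.15).

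Named genes were all member probe sets, up to 4 called genes of each list and comparison by smallest adjusted p, the 2 brightest where none was called, and the 5 most similar genes. Ighm, Hoxa9 and the marker genes given with values were named after their values were seen. The members and gene lists were chosen with earlier results of these data known. Printed coordinates are those of RefSeq promoter windows. The title codes were not used to pair the arrays in the main fit. Deviations of the code A arrays correlated with r of 0.084 between the CD34+ groups and 0.279 between the Flt3- groups. Between CD34+Flt3hi and CD34-Flt3- cells r was 0.069. These values cannot settle whether arrays of a code share an origin.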

Additional observations from a re-analysis of the deposited data

How the results depend on the processing

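No result changed direction past the threshold under the 16 alternative settings. The number of the 15 probe sets called between the CD34+ groups was 3, with 5 under the title code as a fixed block, 5 with only the 4 arrays compared, and 1 to 5 with each array left out. Against CD34-Flt3- cells it was 3, and 3 to 5 with arrays left out. Between the Flt3- groups it was 1, with 2 under the block, 0 after median centring, without the intensity trend or with only the 4 arrays compared, and 0 to 2 with arrays left out. For the difference of the steps it was 0, with 3 under the block and 0 to 3 with arrays left out. The replicate block fits CD34-Flt3- replicate 1 exactly, as the 1 array of code C, and arrays of code A did not all deviate together, so the block stands here alone. Under it Ikzf1 1436312_at was called between the CD34+ groups (adjusted p = 0.00234) and against CD34-Flt3- cells (0.0315), and Ikzf2 1456956_at between the Flt3- groups (0.0177). Calls under the block were 9 for early lymphoid genes, 7 for lymphoid transcription factors and 14 for the stem and megakaryocyte-erythroid genes between the CD34+ groups, and 3 and 5 for the first pair of lists between the Flt3- groups. Between the Flt3- groups 0 early lymphoid genes were called after quantile normalization, and when a gene's probe sets were averaged 1 lymphoid transcription factor and 4 stem and megakaryocyte-erythroid genes were. With that average Satb1 was not called between the Flt3- groups (difference 0.26, adjusted p = 0.648). Member probe sets that differed from the brightest numbered 1 between the CD34+ groups and 1 between the Flt3- groups under the block, and 0 to 2 between CD34+Flt3hi and CD34-Flt3- cells with arrays left out. With arrays left out, an alternative chosen after seeing the data for the gene lists, calls between the CD34+ groups, against CD34-Flt3- cells and between the Flt3- groups ran from 1 to 5, 2 to 7 and 0 to 3 for early lymphoid genes. They ran from 0 to 3, 1 to 8 and 0 to 7 for lymphoid transcription factors, from 1 to 9, 10 to 16 and 0 to 10 for stem and megakaryocyte-erythroid genes, 0 to 2 for corepressors against CD34-Flt3- cells, and 0 to 1 for the relatives against CD34-Flt3- cells and between the Flt3- groups. Single probe-set values lost their call in 13 cases and gained a call in 18. In 13 they moved beyond the replicate spread and changed sign, none past the threshold. The remaining 661 counted as the same, though a shift that kept its sign could be as large. Probe sets near background limit Ikzf3 and the dim Satb1 probe sets.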
